A study of Sus scrofa with 12 samples.

Results

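VPS13A, VPS13B, VPS13C, VPS13D, ATG2A, and ATG2B encode the VPS13 and ATG2 lipid transfer proteins, and their transcripts were followed here in porcine aortic valve interstitial cells (paVICs). The 6 genes were taken by name from a count table of 31908 genes. The family was chosen by measured values, since VPS13C stood higher in all 3 treatments than in vehicle, so the comparisons of these genes with vehicle are given as a description. No p-value is given for them, and the number past the threshold is printed for reference only.

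The proteins of this family are long rods with a hydrophobic groove along their length. They lie between closely apposed membranes and let phospholipids slide in bulk from the endoplasmic reticulum to another organelle, where scramblases spread the lipids over both leaflets. VPS13A works at contacts of the endoplasmic reticulum with mitochondria and lipid droplets, VPS13B at the Golgi, VPS13C at late endosomes, lysosomes, and lipid droplets, and VPS13D at mitochondria and peroxisomes. ATG2A and ATG2B feed lipid to the growing autophagosome. Loss of VPS13A causes chorea-acanthocytosis, loss of VPS13B causes Cohen syndrome, and loss of VPS13C is a cause of early-onset Parkinson disease.

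The paVICs were WT cells of 3 primary isolations, thawed and passaged once. They were exposed for 24 h, in medium with little serum, to the agents or vehicle given below. The isolation number is the replicate number, so the 4 groups share their isolations. Vehicle cells had 0.6% DMSO and 0.1% EtOH. LPC cells had 10 μM lysophosphatidylcholine in EtOH with the DMSO, dantrolene cells had 60 μM dantrolene, an inhibitor of the ryanodine receptor calcium channel, in DMSO with the EtOH, and LPC + dantrolene cells had both agents (n = 3 per group). The study set these groups beside each other to ask how LPC, a lysophospholipid with a single acyl chain, acts on valve cells and how the channel blocker alters that response. Each isolation pooled several hearts, so replicates are cell preparations rather than single animals.

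Libraries held 16489684 to 24105935 counts on genes. Levels are given as CPM, the counts of a gene scaled to a common library size with TMM factors, and a limit of 3 counts, which allows for counting error only, equals 0.114 to 0.186 CPM. All 6 genes passed the filter on low counts that left 13216 genes, and the lowest count of any of them was 51. All 10 markers of interstitial cells or fibroblasts were detected, with a summed level of 55427 to 104786 CPM. The 8 endothelial markers, 7 of them tested, summed to 86.5 to 88.9 CPM in vehicle and to 48.9 to 71.2 CPM in the treated libraries. The 8 haematopoietic markers, 3 of them tested, summed to 13.8 to 28.8 CPM. Most of that sum was CD14, at 10.3 to 24.5 CPM, while PTPRC, CD163, and CD3E were at 0 in every library. LPC + dantrolene replicate 2 stood apart, with the fewest genes detected (13371, against 14546 to 16286 in the others), the largest share of counts in its 10 highest genes (17.1%), and the smallest TMM factor (0.863). The factor was 0.879 to 0.918 in the vehicle libraries and 0.923 to 1.15 in the other treated libraries. Leaving out the scaling factors moved the median log2 fold change of all genes from −0.18 to 0.00 with LPC, from −0.11 to 0.13 with dantrolene, and from −0.08 to 0.12 with LPC + dantrolene.

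VPS13C, VPS13A, and VPS13B were higher in each treated group than in vehicle, by 2.95-fold to 6.65-fold, whereas VPS13D, ATG2A, and ATG2B were not called in any treatment. Between the treatments themselves no gene of the family passed the test. A gene is called when its adjusted p in edgeR's quasi-likelihood test is under 0.05. With LPC, 3 of the 6 genes were called higher and 0 lower, against 8.54% and 0.144% of all 13216 genes tested. With dantrolene, 3 were called higher and 0 lower, against 7.54% and 1.26%. With LPC + dantrolene, 3 were called higher and 0 lower, against 6.23% and 0.9%. The 3 genes were the same in each treatment, the 3 comparisons share their vehicle libraries, and nothing is read from these shares because the family was picked on them.

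**Figure D1:**
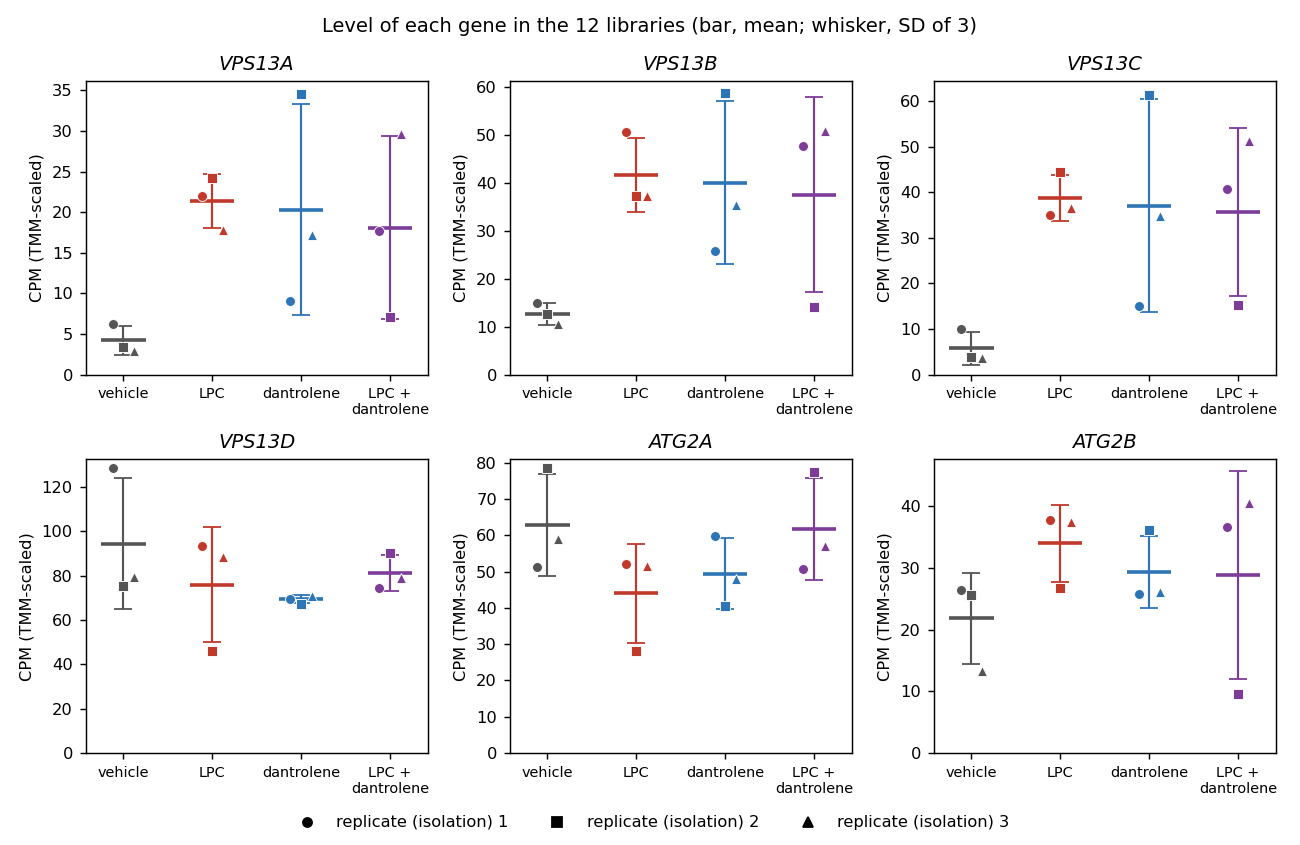
TMM-scaled CPM (vertical axis, from 0, own scale per panel) of the 6 genes in the 4 groups. Each point is a library, its shape the isolation, the bar the mean and the whisker the SD of 3. The treated libraries of VPS13A and VPS13C sit above every vehicle library, while those of VPS13D, ATG2A, and ATG2B mix with vehicle in most groups.

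VPS13C (ENSSSCG00000036431) spans chr1:109931269-110105519 of Sscrofa11.1 in the RefSeq annotation. Its level in vehicle was 9.97, 3.85, and 3.54 CPM in replicates 1 to 3. With LPC it was 35.1, 44.5, and 36.6 CPM, with dantrolene 15.0, 61.4, and 34.7 CPM, and with LPC + dantrolene 40.6, 15.3, and 51.2 CPM. Every treated library therefore stood above every vehicle library, though the lowest treated library was 15.0 CPM and the highest vehicle library 9.97 CPM. These levels rest on 61 to 209 counts in vehicle and on 246 to 1612 counts in the treated libraries.

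The mean level of VPS13C was 5.79 ± 3.62 CPM in vehicle, 38.7 ± 5.06 with LPC, 37.0 ± 23.3 with dantrolene, and 35.7 ± 18.5 with LPC + dantrolene (SD, n = 3). The fitted log2 fold change compared to vehicle was 2.73 (SE 0.40) with LPC, 2.67 (SE 0.40) with dantrolene, and 2.62 (SE 0.40) with LPC + dantrolene, or 6.65-fold, 6.37-fold, and 6.14-fold. Among all genes tested these values lay at percentiles 99.5, 99.5, and 99.4. The spread was smallest with LPC, where the coefficient of variation was 13.1%, and it was 62.9% with dantrolene and 51.7% with LPC + dantrolene. Vehicle replicate 1 held the highest vehicle level, and without it the log2 fold changes were 3.39, 3.32, and 3.27.

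VPS13A (ENSSSCG00000005282; chr1:230069339-230331343) had the same shape at a lower count. Its level in vehicle was 6.30, 3.45, and 2.96 CPM. It was 22.0, 24.3, and 17.8 CPM with LPC, 9.09, 34.5, and 17.2 CPM with dantrolene, and 17.7, 7.08, and 29.6 CPM with LPC + dantrolene. No treated library overlapped vehicle, but LPC + dantrolene replicate 2, at 7.08 CPM, lay close to the highest vehicle library at 6.30 CPM. The log2 fold change was 2.33 (SE 0.40) with LPC, 2.26 (SE 0.40) with dantrolene, and 2.09 (SE 0.40) with LPC + dantrolene. Without dantrolene replicate 2, the library with the highest level, the value for dantrolene was 1.63.

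VPS13B (ENSSSCG00000006071; chr4:37085929-37821159), the Golgi member, started from a higher count and changed by less. Its level was 15.0, 12.7, and 10.5 CPM in vehicle, 50.5, 37.3, and 37.2 CPM with LPC, and 25.8, 58.8, and 35.5 CPM with dantrolene. With LPC + dantrolene it was 47.7, 14.2, and 50.8 CPM, so that replicate 2 fell inside the vehicle range and the groups overlapped. The log2 fold change was 1.71 (SE 0.36) with LPC, 1.65 (SE 0.36) with dantrolene, and 1.56 (SE 0.36) with LPC + dantrolene. Without dantrolene replicate 2 the value for dantrolene was 1.27 and VPS13B was no longer called. Over all genes, 429 were then called with dantrolene in either direction, against 1163 with every library.

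VPS13D (ENSSSCG00000003438; chr6:72256865-72514256), which acts at mitochondria and peroxisomes, did not follow the other VPS13 genes. Its level was 128, 75.1, and 79.5 CPM in vehicle and 93.2, 46.0, and 88.5 CPM with LPC. It was 69.6, 67.4, and 70.9 CPM with dantrolene and 74.3, 90.1, and 79.1 CPM with LPC + dantrolene. The dantrolene libraries lay below all 3 vehicle libraries, and the other treated groups overlapped vehicle. The log2 fold change was −0.31 (SE 0.32), −0.45 (SE 0.32), and −0.22 (SE 0.32) with LPC, dantrolene, and LPC + dantrolene, and none was called. Vehicle replicate 1 weighed on these values, which were −0.03, −0.16, and 0.07 without it.

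The genes of the autophagosome transfer proteins were not called in any treatment either. ATG2A (ENSSSCG00000023890; chr2:7261819-7282614) measured 51.2, 78.5, and 59.0 CPM in vehicle, 52.2, 28.2, and 51.7 CPM with LPC, 59.9, 40.5, and 47.9 CPM with dantrolene, and 50.6, 77.5, and 57.2 CPM with LPC + dantrolene. All 3 treated groups overlapped vehicle, and the log2 fold change was −0.51 (SE 0.33), −0.35 (SE 0.33), and −0.03 (SE 0.32). On total counts alone the last of these was 0.16.

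ATG2B (ENSSSCG00000002502; chr7:117506298-117586651) measured 26.5, 25.6, and 13.4 CPM in vehicle, 37.8, 26.8, and 37.5 CPM with LPC, 25.8, 36.1, and 26.1 CPM with dantrolene, and 36.7, 9.51, and 40.5 CPM with LPC + dantrolene. The LPC libraries all lay above vehicle, by a narrow gap between 26.8 and 26.5 CPM. With LPC + dantrolene the group held both the highest and the lowest level of the gene among the 12 libraries. The log2 fold change was 0.64 (SE 0.36), 0.43 (SE 0.36), and 0.41 (SE 0.36). Without LPC + dantrolene replicate 2 the last value was 0.87 and ATG2B was called. That fit called 2099 of all genes in this comparison, in either direction, against 943 with every library.

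The same library was lowest or highest for several members at once. In vehicle, VPS13A, VPS13B, VPS13C, and ATG2B all ran from replicate 1 as the highest to replicate 3 as the lowest. With dantrolene, replicate 2 was highest and replicate 1 lowest for VPS13A, VPS13B, and VPS13C. With LPC + dantrolene, replicate 3 was highest and replicate 2 lowest for these 3 genes and for ATG2B, while ATG2A and VPS13D were highest in replicate 2. LPC + dantrolene replicate 2 is the library that stood apart in genes detected and in TMM factor, and without it the log2 fold changes of that treatment compared to vehicle were 2.52 for VPS13A, 2.00 for VPS13B, and 3.02 for VPS13C. The part of library quality in the levels of this family was not tested.

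**Figure D2:**
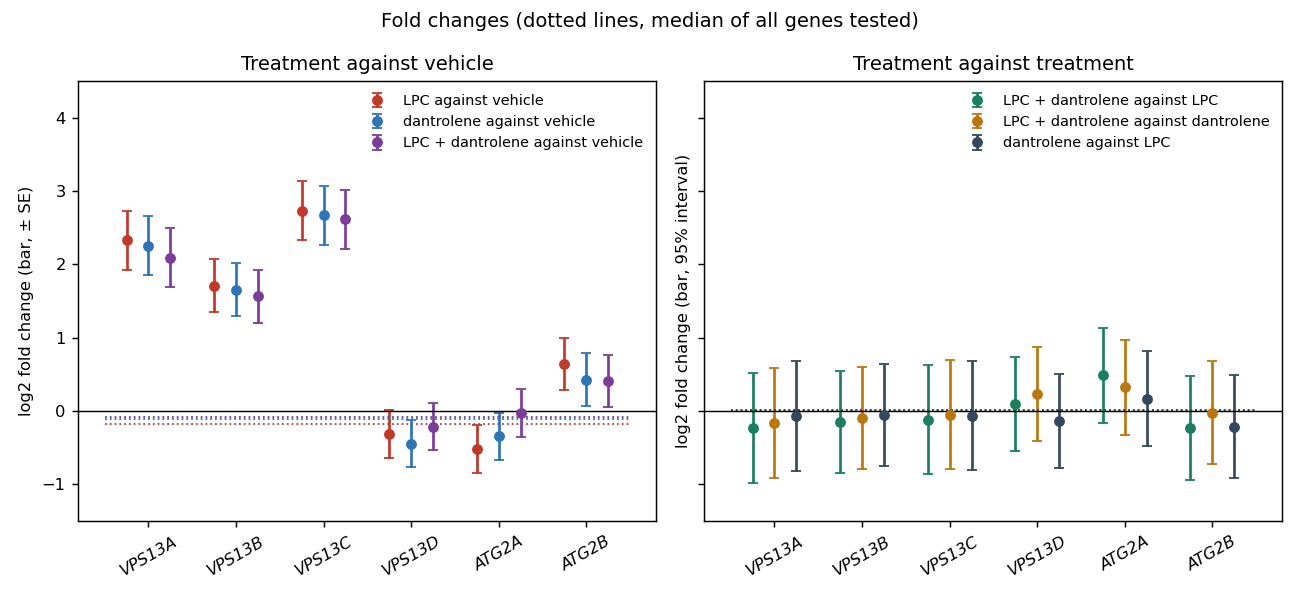
Log2 fold changes of the 6 genes on the vertical axis, for each treatment against vehicle on the left (bars, ± SE) and for treatments against each other on the right (bars, 95% interval). Dotted lines mark the median of all genes. VPS13A, VPS13B, and VPS13C stand between 1.56 and 2.73 on the left, and every interval on the right includes 0.

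Ratios of counts within a library do not depend on library size or on scaling. They do carry any change made gene by gene, such as the ComBat batch adjustment that the paper's methods name. The ratio of VPS13C to VPS13D was 0.0777, 0.0513, and 0.0446 in vehicle. It was 0.377, 0.967, and 0.414 with LPC, 0.216, 0.911, and 0.490 with dantrolene, and 0.546, 0.170, and 0.647 with LPC + dantrolene. The 9 treated libraries all exceeded the vehicle libraries, as they did for the ratio of VPS13A to VPS13D, which was 0.0373 to 0.0491 in vehicle and 0.0786 to 0.527 in the treated libraries. The ratio of VPS13B to VPS13D was 0.117 to 0.169 in vehicle, and a single treated library, LPC + dantrolene replicate 2 at 0.157, lay in that range. The family was chosen because VPS13C stood higher in every treatment, and VPS13D was not called in any. A higher ratio of VPS13C to VPS13D therefore restates that choice. The ratios of VPS13A and VPS13B to VPS13D restate levels given above, so all these ratios are a description and not a separate test.

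Ratios within the set of 3 higher genes were not tested. The ratio of VPS13C to VPS13B counts was 0.304 to 0.663 in vehicle and 0.581 to 1.19 in the treated libraries, so the ranges overlapped. The ratio of VPS13C to VPS13A was 1.12 to 1.58 in vehicle and 1.59 to 2.30 in the treated libraries, so the groups did not overlap, with a gap between 1.583 and 1.593. For the autophagosome pair, ATG2B to ATG2A was 0.518, 0.326, and 0.227 in vehicle and 0.724, 0.948, and 0.726 with LPC. It was 0.431, 0.893, and 0.544 with dantrolene and 0.726, 0.123, and 0.709 with LPC + dantrolene, whose replicate 2 was the lowest of all libraries.

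**Figure D3:**
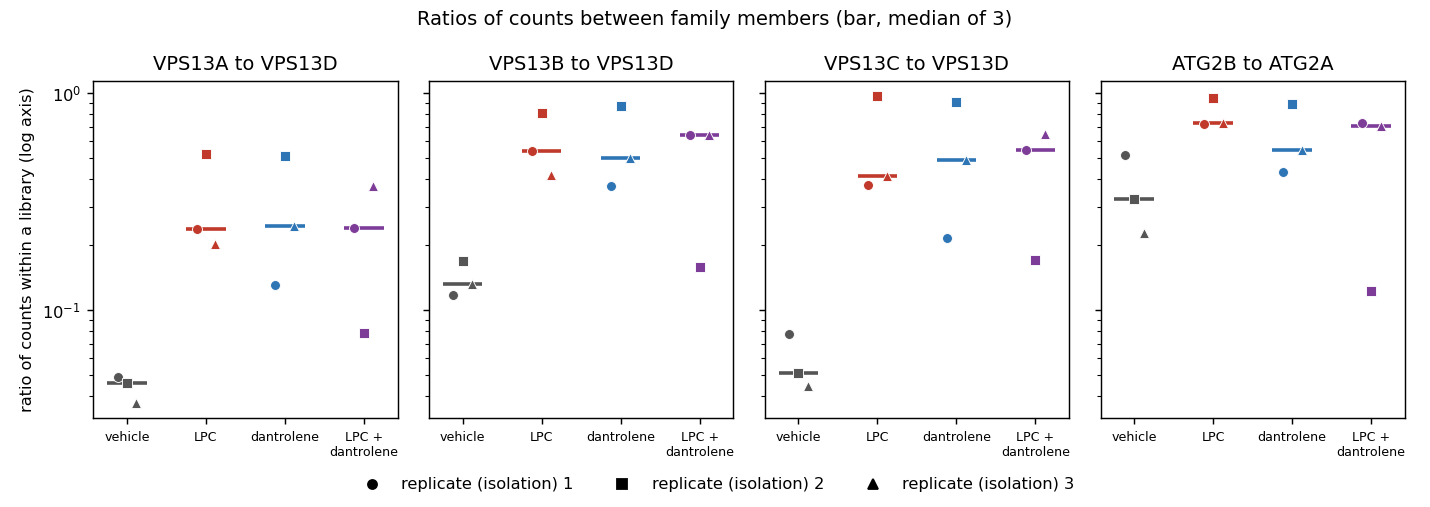
Ratio of counts of a pair of genes within each library, on a log axis, in the 4 groups. Each point is a library, its shape the isolation, and the bar the median of 3. The ratios to VPS13D go from medians of 0.0459, 0.132, and 0.0513 in vehicle for VPS13A, VPS13B, and VPS13C to medians of 0.236, 0.542, and 0.414 with LPC.

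Summed over the 6 genes, the family measured 237, 199, and 169 CPM in vehicle. It measured 291, 207, and 269 CPM with LPC, 205, 299, and 232 CPM with dantrolene, and 268, 214, and 308 CPM with LPC + dantrolene, so the sum overlapped vehicle in every treatment. VPS13A, VPS13B, and VPS13C together held 10.0% to 13.2% of the family's counts in vehicle, 34.0% to 51.2% with LPC, 24.3% to 51.8% with dantrolene, and 17.1% to 42.7% with LPC + dantrolene. VPS13D alone held 54.1%, 37.7%, and 47.1% in vehicle and 22.2% to 42.2% in the treated libraries. Longer transcripts give more counts, so these shares are not shares of molecules.

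The treatments were compared with each other to ask whether dantrolene altered the LPC level. These contrasts hold no vehicle level, but the vehicle libraries entered the filter, the scaling, and the dispersion of the shared fit, and the treated levels also took part in choosing the family. Between LPC + dantrolene and LPC, 0 of the 6 genes were called, against 0.507% of all genes. Between LPC + dantrolene and dantrolene, 0 were called, against 0.0227%. Between dantrolene and LPC, 0 were called, against 0.325%. By edgeR, 0 of the 6 had an unadjusted p under 0.05 in any of the 3 comparisons, and DESeq2 and fits of only the 2 groups compared also called 0.

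For VPS13C, LPC + dantrolene minus LPC was −0.12 on the log2 scale (95% interval −0.86 to 0.63, edgeR adjusted p = 0.984). LPC + dantrolene minus dantrolene was −0.05 (−0.80 to 0.69, edgeR adjusted p = 1), and dantrolene minus LPC was −0.06 (−0.81 to 0.68, edgeR adjusted p = 1). In same-isolation pairs LPC + dantrolene was above LPC in 2 of 3, by 0.21 and 0.48 in pairs 1 and 3, and lower in pair 2, at −1.54. Without LPC + dantrolene replicate 2 the difference from LPC was 0.23, so its sign rests on that library.

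For VPS13A and VPS13B the difference of LPC + dantrolene from LPC was −0.24 (95% interval −0.99 to 0.51) and −0.15 (−0.85 to 0.55), with edgeR adjusted p of 0.968 and 0.976. Both signs turned without LPC + dantrolene replicate 2, to 0.13 and 0.23. Dantrolene differed from LPC by −0.07 (−0.82 to 0.68) for VPS13A and by −0.06 (−0.75 to 0.64) for VPS13B, with edgeR adjusted p of 1 for both. VPS13A differed by −0.16 (−0.91 to 0.58) and VPS13B by −0.09 (−0.79 to 0.60) between LPC + dantrolene and dantrolene, and without dantrolene replicate 2 these values were 0.46 and 0.29.

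The widest difference among the treated groups was that of ATG2A, at 0.49 (95% interval −0.16 to 1.14) for LPC + dantrolene against LPC, with an edgeR adjusted p of 0.887. The same contrast gave 0.10 (−0.54 to 0.74) for VPS13D and −0.23 (−0.94 to 0.47) for ATG2B. All 3 LPC + dantrolene libraries of VPS13D lay above all 3 dantrolene libraries, at 74.3 to 90.1 CPM against 67.4 to 70.9 CPM, and the difference was 0.23 (−0.41 to 0.87, edgeR adjusted p = 1). The other 5 genes overlapped in that contrast, and all 6 overlapped in each of the other contrasts between treatments. The share of all genes without overlap was not computed, so nothing is read from this separation.

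The interaction is the effect of LPC with dantrolene present less its effect without dantrolene. It contains the vehicle libraries and is therefore described only. It was −2.79 (SE 0.54) for VPS13C, −2.49 (SE 0.55) for VPS13A, and −1.80 (SE 0.50) for VPS13B on the log2 scale, and 0.54, 0.83, and −0.66 for VPS13D, ATG2A, and ATG2B. The values of VPS13A, VPS13B, and VPS13C were past the threshold, 3 of 6 genes, where 4.65% of all genes were, and nothing is read from this share. In the paired fit with a replicate block VPS13B was not called. The values arise from 4 group levels of which vehicle was low and the other 3 were near each other. The interaction call was lost for all 3 genes without LPC replicate 2 and also without dantrolene replicate 2. Over all genes the interaction calls fell from 614 to 4 and to 34 in these fits, so the loss was not particular to the family.

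The other bridge-like lipid transfer proteins, which share the grooved rod, were the closest structural relatives. Of 4 genes, all tested, 2 were called higher in each treatment and 0 lower, against the 8.54%, 7.54%, and 6.23% of all genes. BLTP1 measured 6.53, 4.44, and 2.56 CPM in vehicle, 23.2, 22.0, and 17.2 CPM with LPC, 7.39, 27.8, and 19.97 CPM with dantrolene, and 29.9, 6.40, and 34.5 CPM with LPC + dantrolene. In the last group replicate 2 fell among the vehicle levels. The edgeR log2 fold changes were 2.20, 2.02, and 2.38, with adjusted p of 4.28e-05, 0.000213, and 2.65e-05. This list and those below were written with earlier results of these data known. Called genes were picked for naming by their smallest adjusted p, so their p-values compared to vehicle are a description. Nothing is read from the 2 of 4 genes called here.

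BLTP3B, an endosomal relative, measured 23.7, 23.0, and 15.4 CPM in vehicle, 103, 108, and 103 CPM with LPC, 52.2, 148, and 81.2 CPM with dantrolene, and 104, 38.0, and 120 CPM with LPC + dantrolene. No treated library overlapped vehicle. The edgeR log2 fold changes were 2.34, 2.18, and 2.07, with adjusted p of 2.59e-06, 1.15e-05, and 2.60e-05. BLTP2 and BLTP3A were not called in any treatment, with log2 fold changes of −0.31 to 0.07.

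The proteins that recruit or assist VPS13 and ATG2 at membranes are the adaptors VAPA, VAPB, and MOSPD2, small GTPases, and scramblases. Of 19 listed, 15 were tested, and 1 (6.67%) was called higher and 0 lower in each treatment, a share near the 8.54%, 7.54%, and 6.23% of all genes called higher with LPC, dantrolene, and LPC + dantrolene. That gene was MOSPD2, an anchor of the endoplasmic reticulum that binds the FFAT motif. It measured 3.20 to 5.02 CPM in vehicle, 10.5 to 15.7 with LPC, 12.3 to 13.5 with dantrolene, and 4.97 to 17.6 with LPC + dantrolene, and its edgeR log2 fold changes were 1.67, 1.66, and 1.64 (adjusted p = 0.000863, 0.00113, and 0.00144). The median of the list was −0.09, −0.05, and −0.08 with LPC, dantrolene, and LPC + dantrolene, beside −0.18, −0.11, and −0.08 for all genes. RHOT2, TSG101, and WDR45B had no row under these symbols and ATG9B did not pass the filter.

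Of 32 genes of the autophagy machinery that ATG2 serves, 30 were tested, and 2 (6.67%) were called higher and 0 lower in each treatment, again near the 8.54%, 7.54%, and 6.23% of all genes. PIK3C3, the lipid kinase that starts autophagosome nucleation, measured 4.94 to 6.60 CPM in vehicle, 19.8 to 25.2 with LPC, 10.8 to 22.3 with dantrolene, and 6.65 to 23.5 with LPC + dantrolene. Its edgeR log2 fold changes were 2.00, 1.58, and 1.49 (adjusted p = 4.06e-05, 0.00142, and 0.00312). ATG4C, a protease that processes LC3-type proteins, had log2 fold changes of 1.96, 1.87, and 1.96 (adjusted p = 0.00176, 0.00362, and 0.0023). The median of the list was −0.20, −0.17, and −0.08. The count with LPC + dantrolene was 4 higher and 1 lower without replicate 2 of that group and 1 higher without replicate 1, and the count with dantrolene was 1 without vehicle replicate 2. With LPC it was 4 without LPC + dantrolene replicate 2. Calls over all genes, in either direction, moved as well. With LPC + dantrolene they were 943 with every library, 2099 without replicate 2, and 563 without replicate 1. With dantrolene they were 1163, and 629 without vehicle replicate 2. With LPC they were 1148, and 1692 without LPC + dantrolene replicate 2.

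The other lipid transfer proteins of contact sites carry single lipids in a pocket or along a short tube. Of 28 listed, 26 were tested, and 3 were called higher with LPC, 1 with dantrolene, and 1 with LPC + dantrolene, with 0 lower. These are 11.5%, 3.85%, and 3.85% of the list, around the 8.54%, 7.54%, and 6.23% of all genes. OSBPL8, which exchanges phosphatidylserine at the plasma membrane, was called in all 3, with edgeR log2 fold changes of 2.17, 1.85, and 1.66 (adjusted p = 1.25e-05, 0.000205, and 0.000906). With LPC the other genes called were PDZD8, at 1.16 (adjusted p = 0.017), and the ceramide carrier CERT1, at 1.32 (adjusted p = 0.0141). The count with LPC was 1 without vehicle replicate 2, vehicle replicate 3, LPC replicate 1, or LPC replicate 2, and the count with dantrolene was 2 without LPC replicate 3 or dantrolene replicate 1 and 3 without LPC + dantrolene replicate 2 or 3. With LPC + dantrolene it was 3 higher and 2 lower without replicate 2 of that group. Over all genes, in either direction, the calls with LPC were 687 to 776 in those fits, against 1148 with every library. With dantrolene they were 1180 to 1223, and 1799 without LPC + dantrolene replicate 2, against 1163. With LPC + dantrolene they were 2099, against 943. The median of the list was −0.26, −0.12, and −0.02.

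Of 20 genes of lipid droplets, where VPS13A and VPS13C can sit, 14 were tested, and ACSL4 alone (7.14%) was called higher in each treatment with 0 genes lower, near the 8.54%, 7.54%, and 6.23% of all genes. ACSL4, an acyl-CoA synthetase that prefers arachidonic acid, measured 21.8 to 35.6 CPM in vehicle, 79.9 to 123 with LPC, 55.3 to 134 with dantrolene, and 27.8 to 122 with LPC + dantrolene. Its edgeR log2 fold changes were 1.73, 1.70, and 1.63 (adjusted p = 0.000304, 0.000508, and 0.000906). The median of the list was −0.25, −0.30, and −0.14. Without LPC + dantrolene replicate 2 the list's count was 3 with LPC and 2 with LPC + dantrolene, and 1 gene was called lower with dantrolene and with LPC + dantrolene. That fit called 1692, 1799, and 2099 of all genes with LPC, dantrolene, and LPC + dantrolene, in either direction. With every library these were 1148, 1163, and 943. Between treatments edgeR and DESeq2 called 0 of the 89 tested genes of the 5 lists, and by edgeR 1 had an unadjusted p under 0.05 for LPC + dantrolene against LPC, 1 for LPC + dantrolene against dantrolene, and 2 for dantrolene against LPC. These are 1.12%, 1.12%, and 2.25% of the list genes, beside 6.61%, 1.28%, and 4.40% of all genes at that p, while 0.507%, 0.0227%, and 0.325% of all genes were called.

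**Figure D4:**
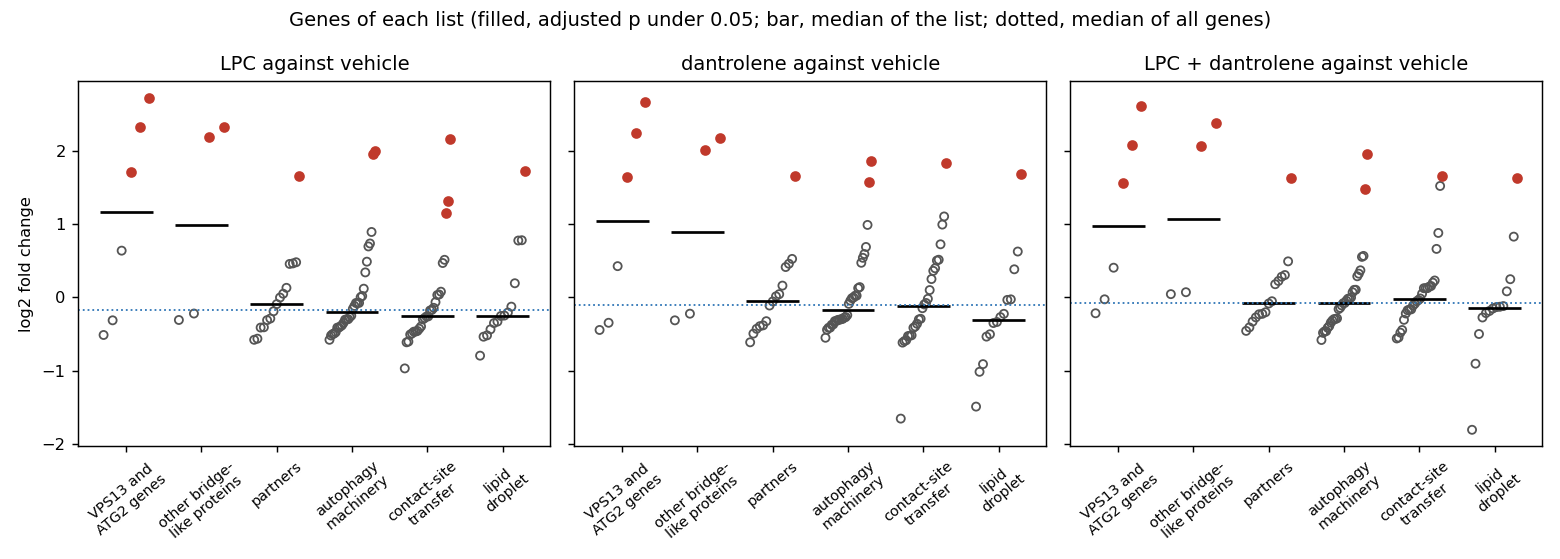
Log2 fold change compared to vehicle (vertical axis) of each tested gene of the family and of 5 lists, for the 3 treatments. Filled points have an adjusted p under 0.05, bars are list medians, and the dotted line is the median of all genes. The filled points of the lists other than the bridge-like proteins are 1 to 3 per list, and the medians of these lists lie between −0.30 and −0.02.

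The genes whose pattern over the 12 libraries was nearest to that of VPS13C were ranked by the root mean square difference of centred log2 CPM. The 8 nearest with a symbol were PCM1 (0.20), NEMF (0.22), AKAP9 (0.22), UPF2 (0.22), SMCHD1 (0.27), KTN1 (0.28), GOLGB1 (0.29), and ZNF638 (0.29). PCM1, a scaffold of centriolar satellites, measured 8.31 to 18.0 CPM in vehicle and 53.8 to 72.2 CPM with LPC. AKAP9 and GOLGB1 are large coiled-coil proteins of the Golgi, and GOLGB1 measured 10.7 to 20.4 CPM in vehicle and 72.3 to 89.1 CPM with LPC. UPF2, a factor of nonsense-mediated decay, measured 2.22 to 3.86 CPM in vehicle and 16.0 to 18.5 CPM with LPC. The other treated groups were wider. With dantrolene PCM1 measured 30.7 to 107 CPM, GOLGB1 32.0 to 133 CPM, and UPF2 7.72 to 27.2 CPM. With LPC + dantrolene they measured 22.9 to 79.9, 21.9 to 88.7, and 7.58 to 23.3 CPM, so the lowest libraries came near the vehicle levels. All 8 had log2 fold changes of 2.10 to 2.65 in the 3 treatments.

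On the same measure VPS13A ranked 12 of 13215 genes (0.30), VPS13B 363 (0.61), ATG2B 1813 (1.08), VPS13D 6548 (1.48), and ATG2A 10265 (1.60). The nearest pair of the family other than VPS13A and VPS13C was VPS13D and ATG2A (0.34), followed by VPS13A and VPS13B (0.38). The SD of log2 CPM over the 12 libraries was 1.40 for VPS13C, 1.18 for VPS13A, 0.89 for VPS13B, 0.63 for ATG2B, 0.39 for ATG2A, and 0.35 for VPS13D. These likenesses are descriptions, and the points share libraries and scaling.

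The genes differ in the length they occupy on the genome. The RefSeq spans are 735231 bases for VPS13B, 262005 for VPS13A, 257392 for VPS13D, 174251 for VPS13C, 80354 for ATG2B, and 20796 for ATG2A. Over 10753 tested genes with a span, 2.82% of those under 20 kb were called higher with LPC, 9.69% of those from 20 to 50 kb, 16.8% of those from 50 to 100 kb, and 15.7% of those of 100 kb and more. With dantrolene the shares were 2.65%, 8.20%, 14.7%, and 14.0%, and with LPC + dantrolene 2.28%, 6.36%, 12.6%, and 11.3%. VPS13D is in the longest class with VPS13A, VPS13B, and VPS13C and was not called. The part of gene length in the levels of the family was not tested.

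**Figure D5:**
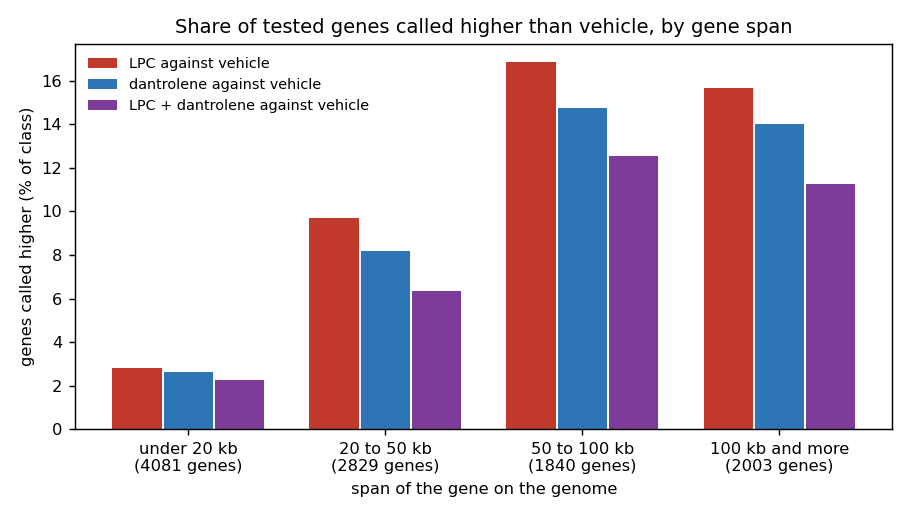
Share of tested genes called higher than vehicle (vertical axis, percent of the class) in 4 classes of genomic span, for the 3 treatments. The class under 20 kb holds 2.28% to 2.82%, and the class of 50 to 100 kb holds 12.6% to 16.8%.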

How the data were processed

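Poly-T selected mRNA of 12 paVIC libraries (4 groups of 3) was sequenced. The authors deposited whole-number counts per gene. The paper's methods name STAR v2.7.9 and a ComBat batch adjustment, whereas the submitters' processing notes name HISAT2 2.0.5, R 4.1.1, DESeq2 1.32.0, and Sscrofa11.1. The counting program and annotation release are not given in the sources used here. The adjustment draws the isolation means of a gene together and is not known to the model fitted here, whose p-values may for that reason come out low. The labels do not describe a strand-marking kit, so reads from overlapping or antisense genes cannot be told apart. The authors' tables of 4 comparisons (mean signal, log2 fold change, SE, Wald score, p-values) were not used.

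Groups came from the labels. Counts were fitted in R 4.3.3 with edgeR 4.0.16: filterByExpr, TMM factors, and a quasi-likelihood model of the 4 groups over all 12 libraries, with Benjamini-Hochberg adjustment over all genes tested and a threshold of 0.05. The depth per library is given with the results. The procedure was tested on simulated data. Alternatives were DESeq2 1.42.0, a replicate block, RLE factors, library totals in place of TMM factors (total counts alone), a filter of at least 10 counts in all libraries or none at all, a fit of only the 2 groups compared, a threshold of 0.1, and leaving out each library in turn. List counts were recomputed under the same alternatives, a choice made after seeing the data. The members and lists were chosen with earlier results of these data known. The named genes were the 6 members, list genes called (those with the smallest adjusted p), and the 8 genes with a symbol nearest to VPS13C (prior count 2). Genomic spans and positions are those of the RefSeq annotation of Sscrofa11.1, matched by symbol (6 of 6 members). Transcript lengths, protein sequences, and promoters were not analysed here, so ratios and shares of counts between genes are not read as amounts of molecules.

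The paper's methods give experiments on separate isolations with a replicate in each group, so same-numbered libraries were taken as paired. That the replicate number marks the isolation was assumed. Deviations from group means of same-isolation libraries correlated with a median of −0.152 (−0.536 to 0.207), against 0.108 between isolations, an outcome that the adjustment of the counts fixes.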

Additional observations from a re-analysis of the deposited data

Results flagged for a closer look

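The interaction of LPC and dantrolene was past the threshold for 3 genes of the family. A low vehicle level and 3 treated levels near each other give a negative value by arithmetic. No difference in the effect of LPC is therefore read from this interaction. It was −2.79 for VPS13C, −2.49 for VPS13A, and −1.80 for VPS13B. The paired fit with a replicate block kept 2 of the 3 calls and lost that of VPS13B, and all 3 were lost without LPC replicate 2 and also without dantrolene replicate 2. Over 19 alternatives the call was lost in 6 for VPS13B and in 2 each for VPS13A and VPS13C. Over all genes the interaction calls went from 614 to 280 in the paired fit, and to 4 and 34 without those libraries. The vehicle libraries, which took part in choosing the family, enter this contrast, so the values are a description. The effect of LPC without dantrolene was 2.73, 2.33, and 1.71 for these genes, and with dantrolene present it was −0.05, −0.16, and −0.09. Groups of 3 libraries were not screened for single outlying values.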

How the results depend on the processing

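The log2 fold changes of VPS13A, VPS13B, and VPS13C compared to vehicle were 1.27 to 3.39 over the alternatives, a description since these comparisons chose the family. The only value of these 3 genes there that crossed the threshold was that of VPS13B with dantrolene without dantrolene replicate 2 (1.27). With each library left out in turn, the number of the 6 genes called was 3 to 3 with LPC, 2 to 3 with dantrolene, 3 to 4 with LPC + dantrolene, 0 to 0 in the 3 comparisons of treatments, and 0 to 3 for the interaction. Over all genes these fits called 687 to 1692 with LPC, 429 to 1799 with dantrolene, and 508 to 2099 with LPC + dantrolene. For the interaction they called 4 to 937. With a replicate block, the paired fit, 3 genes were called in each comparison with vehicle, 0 in each comparison of treatments, and 2 for the interaction, where VPS13B (−1.86) was lost. VPS13B was also lost there on total counts alone (−1.95). Over all genes, 280 interactions were called with the block and 234 on total counts alone, against 614 in the main fit. Of 835 recomputed values, 785 kept direction and call, 11 lost the call, 1 gained it, and 38, none of them called, had the other sign. Of these 38, 29 were between treatments, where the smallest adjusted p over 360 recomputed values was 0.469, and 9 against vehicle. List counts moved by over 1.5 times, or to or from 0, in 80 of 1390 recomputations.

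The sign of ATG2A with LPC + dantrolene compared to vehicle turned with RLE factors (0.0404), DESeq2 (0.0404), total counts alone (0.158), and only the 2 groups compared (0.0704). On total counts alone the sign also turned for ATG2B between LPC + dantrolene and dantrolene (0.0278) and for VPS13A (0.00463), VPS13B (0.0121), and VPS13C (0.0228) between dantrolene and LPC. The other turns came with a library left out. Compared to vehicle, LPC + dantrolene then ranged from −0.36 to 0.069 for VPS13D and from −0.17 to 0.16 for ATG2A. Compared to LPC, LPC + dantrolene ranged from −0.78 to 0.13 for VPS13A, −0.43 to 0.23 for VPS13B, −0.47 to 0.23 for VPS13C, −0.16 to 0.27 for VPS13D, and −0.56 to 0.17 for ATG2B. Compared to dantrolene, it ranged from −0.71 to 0.46 for VPS13A, −0.37 to 0.29 for VPS13B, −0.43 to 0.52 for VPS13C, and −0.34 to 0.39 for ATG2B. Dantrolene compared to LPC ranged from −0.70 to 0.27 for VPS13A, −0.44 to 0.17 for VPS13B, −0.64 to 0.30 for VPS13C, −0.39 to 0.042 for VPS13D, and −0.072 to 0.31 for ATG2A. In each result the cause was not tested. With 3 libraries a group, the SE of a difference between treatments was 0.32 to 0.38 on the log2 scale.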
